A study of Saccharomyces cerevisiae with 6 samples.

Results

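The genes described here are 37 genes of Saccharomyces cerevisiae that take up sulfate, reduce it to sulfide and build methionine, cysteine and S-adenosylmethionine from it, with their permeases and regulators. They were chosen by gene symbol, as the probe sets annotated to those symbols, out of 5449 genes tested. Each of the 37 had 1 probe set of its own, and 0 of these carried the suffix _s_at or _x_at of probe sets that can hybridise more than 1 gene.

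Cells labelled BY4741, a haploid laboratory strain, were grown in the rich medium YPD and then treated for 3 hours. The groups were 20 µM CID 3528206, a compound named only by that code, 200 nM rapamycin and 1% DMSO, the solvent control, with 2 Affymetrix arrays each. Rapamycin blocks the TORC1 kinase, through which nutrients drive growth. The labels call the arrays duplicates and name no separate cultures. The p-values thus cover just the spread between these samples, which may be technical. The concentrations of the compound and of rapamycin are not the same. The labels do not say whether DMSO was present in those 2 treatments.

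Yeast imports sulfate through 2 permeases, activates it with ATP and reduces it stepwise to sulfide. Sulfide is joined to O-acetylhomoserine to give homocysteine, which is either methylated to methionine or converted to cysteine by transsulfuration, and methionine is activated to S-adenosylmethionine, the methyl donor of the cell. Much of the pathway is under the transactivator Met4, which reaches DNA through Cbf1 and Met28 or through Met31 and Met32, and which the ubiquitin ligase SCF with its F-box protein Met30 restrains when sulfur amino acids are plentiful.

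Values are deposited log2 values after RMA, which corrects background, normalizes arrays to the same distribution and summarises the probes of a probe set. Because probes differ in how well they bind, levels of different genes are not set against each other. Array medians over the genes tested ran from 10.08 to 10.11. As background served the highest 99th percentile, 5.24, of the 1746 probe sets designed for another yeast, Schizosaccharomyces pombe. Only SUL1 in the 2 DMSO arrays lay below it among the members. CID 3528206 replicate 1 stood apart in RNA quality: for 7 control genes, 3' probe sets exceeded 5' ones by a mean of 1.69 log2 units on it, against 0.91 to 1.14 on the remaining 5. The arrays measure RNA from whole cultures, so fewer cells of a kind and less RNA per cell cannot be told apart.

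The strain label bears on 1 member directly. BY4741 is defined by deletions that include MET17, also called MET15, which encodes the enzyme that joins sulfide to O-acetylhomoserine. MET17 nevertheless had log2 values of 11.64 and 11.63 after CID 3528206, 11.30 and 11.34 after rapamycin, and 12.06 and 12.11 after DMSO, all far above the background. The 4 genes deleted in BY4741 lay between 10.39 and 12.11 over all arrays. The probe sets of 5 genes of alpha cells, a mating type other than that of BY4741, all lay at 8.59 or higher, above the background on every array. The strain is given only as labelled.

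The 37 genes moved in both directions rather than together. After CID 3528206, 15 were called higher than after DMSO, 14 were called lower and 8 did not pass, where a call is a limma p under 0.05 after Benjamini-Hochberg adjustment over all 5449 genes. Over all genes tested 26.1% were called higher and 24.4% lower. After rapamycin, 12 members were higher, 13 lower and 12 did not pass, beside 26.5% of all genes higher and 26.2% lower. At least 2-fold differences were called for 11 members after the compound, or 29.7%, beside 7.07% of all genes. After rapamycin they were called for 12 members, or 32.4%, beside 8.46% of all genes. The 11 include SUL1 by its log2 difference of 1.67, although its DMSO arrays lay below the background.

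The median log2 difference of the members lay near 0, at 0.04 after CID 3528206 and -0.03 after rapamycin, beside -0.01 and -0.02 for all genes tested. Their median absolute difference was 0.57 after the compound and 0.74 after rapamycin, beside 0.29 and 0.30. The arrays of the compound and of DMSO did not overlap for 32 of the 37, beside 75.8% of all genes, and those of rapamycin and DMSO for 31, beside 84.9%. The 2 comparisons share the DMSO arrays and are given side by side.

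Leaving out 1 array moved calls over the whole array set, so the calls of members that ended or appeared that way, given below, are to be read beside these shares. For the compound against DMSO, 50.5% of all genes were called with all arrays. The share was 31.5% without DMSO replicate 1, 28.5% without DMSO replicate 2 and 41.8% without either rapamycin array. Without CID 3528206 replicate 1 it was 56.5%, with 15 members higher and 14 lower, and without replicate 2 it was 65.2%, with 16 and 16. For rapamycin against DMSO, 52.7% of all genes were called with all arrays, 32.9% to 33.4% without 1 of the DMSO or rapamycin arrays, and 67.9% without either compound array. With 1 compound array left out, the spread comes from the rapamycin and DMSO replicates alone, and the lone compound array is assumed to vary like them.

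**Figure D1:**
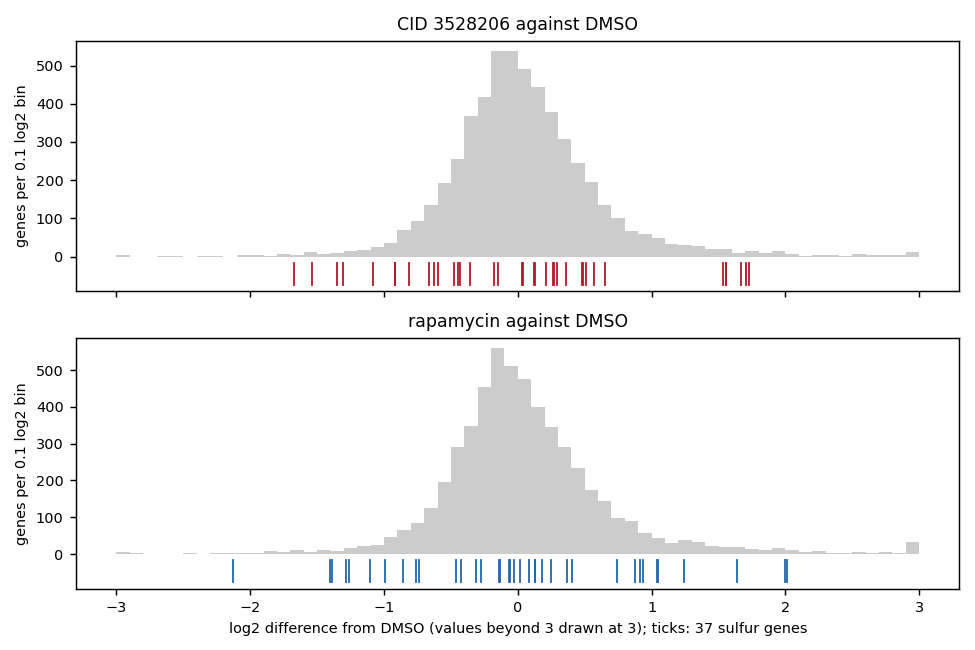
Histograms of the log2 difference from DMSO over 5449 genes (x axis, log2 units; y axis, genes per bin) for CID 3528206 above and rapamycin below; coloured ticks mark the 37 sulfur genes. The ticks run from -1.67 to 1.73 after the compound and from -2.13 to 2.01 after rapamycin, on both sides of the bulk of all genes.

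Both sulfate permease genes were measured, and SUL1 carried the larger differences. SUL1, a high-affinity sulfate permease, had log2 values of 6.13 and 6.10 after CID 3528206, 5.31 and 5.34 after rapamycin, and 4.44 and 4.45 after DMSO. The 3 groups did not overlap, and both DMSO arrays lay below the background of 5.24, so no fold against DMSO is given. SUL1 rose after the compound (log2 difference 1.67 ± 0.06, SE from limma with n = 2 arrays per group, as after every ± below, adjusted p = 3.00e-05). After rapamycin, where it lay just above the background, it also rose (0.87 ± 0.06, adjusted p = 0.00016), a difference of 0.50 after quantile normalization of the tested genes.

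SUL2, the other sulfate permease, lay at 8.20 and 8.17 after the compound, 8.02 and 8.06 after rapamycin, and 7.82 and 8.01 after DMSO. The compound arrays were above both DMSO arrays, which lay 0.19 apart. Its difference was 0.27 ± 0.08 after the compound (adjusted p = 0.0359), and 0.13 ± 0.08 after rapamycin, which did not pass (adjusted p = 0.235). The compound's call for SUL2 ended without DMSO replicate 1 (adjusted p = 0.224), without CID 3528206 replicate 1 (0.0535) and without either rapamycin array (0.0782).

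The 8 genes that reduce sulfate to sulfide did not move together. After CID 3528206, 4 rose, 2 fell and 2 did not pass. After rapamycin, 3 rose, 2 fell and 3 did not pass. These calls made up 75.0% of the 8 after the compound and 62.5% after rapamycin, beside 50.5% and 52.7% of all genes. MET10, a subunit of sulfite reductase, stood out with values of 10.06 and 10.05 after the compound, 9.75 and 9.73 after rapamycin, and 8.57 and 8.42 after DMSO. All treated arrays were more than 1 log2 unit above both DMSO arrays. MET10 rose 2.95-fold after the compound (1.56 ± 0.08, adjusted p = 6.32e-05) and 2.37-fold after rapamycin (1.24 ± 0.08, adjusted p = 8.53e-05).

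MET5, the other sulfite reductase subunit, had values of 9.94 and 9.68 after CID 3528206, 9.38 and 9.44 after rapamycin, and 9.60 and 9.49 after DMSO. The compound arrays lay above the others and differed by 0.26 ± 0.10 from DMSO without passing (adjusted p = 0.0741). The rapamycin difference was -0.14 ± 0.10, which did not pass either (adjusted p = 0.306). The compound's difference for MET5 was 0.14 without CID 3528206 replicate 1 (adjusted p = 0.176) and 0.39 without replicate 2, where it passed (adjusted p = 0.00515).

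The early steps split. MET14, the kinase that phosphorylates adenylyl sulfate, had values of 9.25 and 9.66 after the compound, 9.16 and 9.40 after rapamycin, and 10.20 and 10.34 after DMSO. Every treated array lay below both DMSO arrays, and MET14 fell after both treatments, with a log2 difference of -0.82 ± 0.15 after the compound (adjusted p = 0.00656) and -0.99 ± 0.15 after rapamycin (adjusted p = 0.00284). MET16, the reductase of the next step, had values of 9.33 and 9.61 after the compound, 9.81 and 9.97 after rapamycin, and 8.88 and 9.04 after DMSO. Here every treated array lay above DMSO, and MET16 rose by 0.51 ± 0.12 after the compound (adjusted p = 0.0150) and by 0.93 ± 0.12 after rapamycin (adjusted p = 0.00145). The compound's call for MET16 ended without DMSO replicate 1 (adjusted p = 0.0905).

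The other 4 genes of sulfate reduction differed by less than 0.5 log2 units. MET3, the ATP sulfurylase of the first step, rose by 0.21 ± 0.06 after the compound (adjusted p = 0.0358) and by 0.25 ± 0.06 after rapamycin (adjusted p = 0.0208). These calls ended when either DMSO array was left out, with adjusted p of 0.147 and 0.194 for the compound and 0.105 and 0.134 for rapamycin without DMSO replicates 1 and 2. The call for rapamycin ended without rapamycin replicate 1 (0.0838) or 2 (0.148) too, and the compound's without either of them (0.0859). MET22, which clears the nucleotide byproduct of sulfate reduction, fell after both treatments, with a log2 difference of -0.43 ± 0.07 after the compound (adjusted p = 0.00289) and -0.27 ± 0.07 after rapamycin (adjusted p = 0.0145). The rapamycin call of MET22 ended when any 1 DMSO or rapamycin array was left out, with adjusted p of 0.0797 and 0.109 without DMSO replicates 1 and 2 and 0.102 and 0.0863 without rapamycin replicates 1 and 2. MET1 and MET8 make siroheme, the cofactor of sulfite reductase. MET1 rose by 0.30 ± 0.08 after the compound (adjusted p = 0.0211), a call that ended without DMSO replicate 1 (0.147) or 2 (0.0608), and its difference after rapamycin was 0.09 ± 0.08. MET8 differed by 0.13 ± 0.10 after each treatment and did not pass. The MET8 difference after the compound was 0.25 without CID 3528206 replicate 1, where it passed (adjusted p = 0.0416), and 0.01 without replicate 2 (adjusted p = 0.948).

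**Figure D2:**
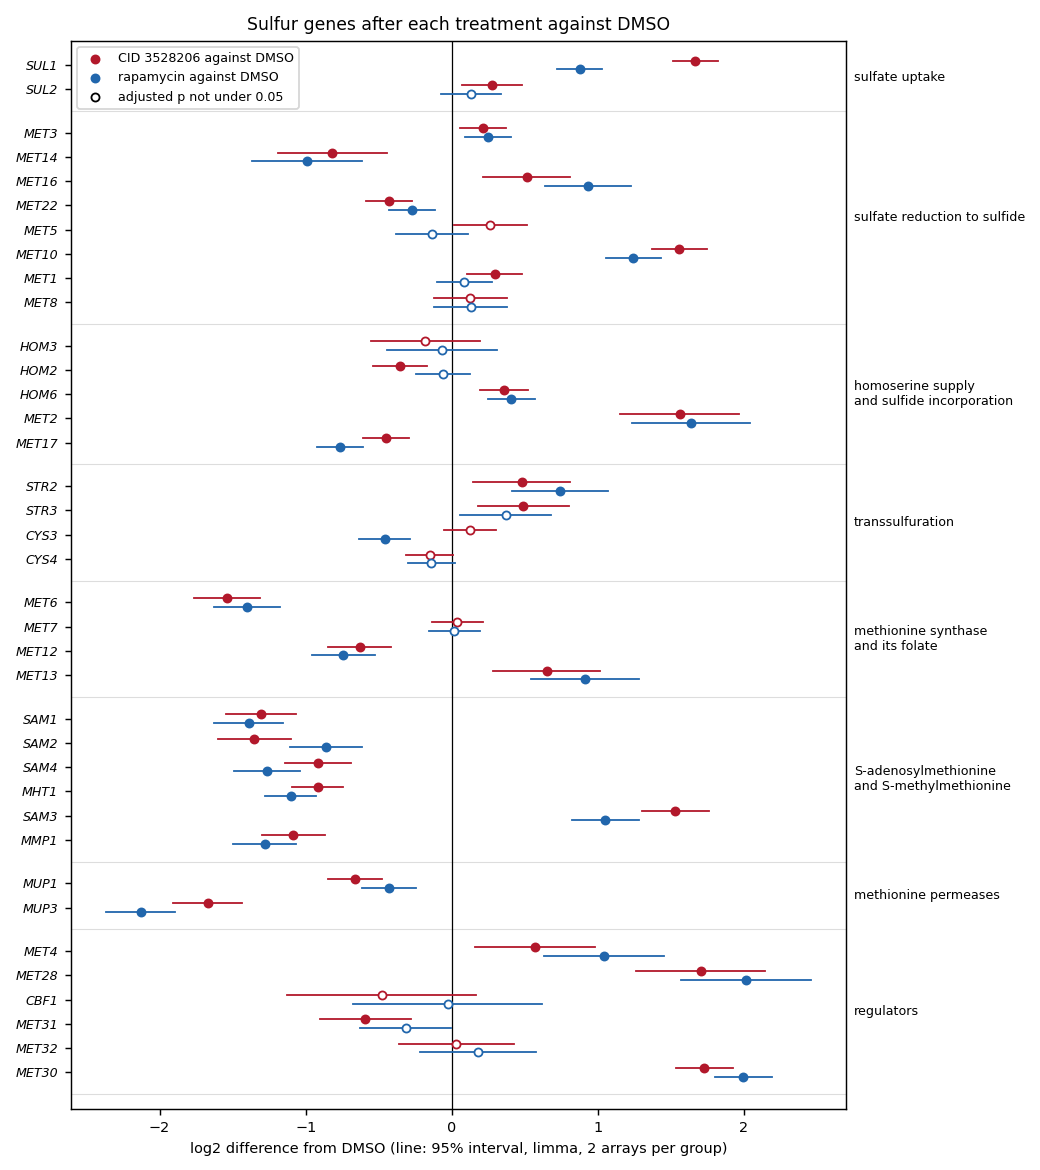
Log2 difference from DMSO (x axis, log2 units) of the 37 sulfur genes by role, for CID 3528206 (red, upper of each pair) and rapamycin (blue, lower); lines are 95% intervals from limma with 2 arrays per group, and open points did not pass an adjusted p of 0.05. SUL1, MET10, MET2, SAM3, MET28 and MET30 lie furthest to the right after the compound, and MUP3 and MET6 furthest to the left.

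The steps that supply and use homoserine were led by MET2, the acetyltransferase that activates homoserine for sulfide. MET2 had values of 7.88 and 8.38 after CID 3528206, 8.14 and 8.27 after rapamycin, and 6.49 and 6.65 after DMSO. The treated arrays lay well above DMSO, with the compound replicates 0.50 apart. It rose 2.95-fold after the compound (1.56 ± 0.17, adjusted p = 0.000823) and 3.11-fold after rapamycin (1.64 ± 0.17, adjusted p = 0.000550).

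MET17, which acts on the product of Met2, went the other way in its values given above. All treated arrays lay below DMSO, and MET17 fell after both treatments, with a log2 difference of -0.45 ± 0.07 after the compound (adjusted p = 0.00250) and -0.76 ± 0.07 after rapamycin (adjusted p = 0.000286). HOM6, homoserine dehydrogenase, rose by 0.36 ± 0.07 after the compound (adjusted p = 0.00620) and by 0.41 ± 0.07 after rapamycin (adjusted p = 0.00339). The compound's call for HOM6 ended without DMSO replicate 2 (adjusted p = 0.0589). HOM2, aspartic semialdehyde dehydrogenase, fell after the compound (-0.35 ± 0.08, adjusted p = 0.0108), a call that ended without DMSO replicate 1 (0.0530) or 2 (0.0855). After rapamycin HOM2 differed by -0.06 ± 0.08. HOM3, the aspartate kinase at the head of this branch, differed by -0.18 ± 0.15 after the compound and -0.07 ± 0.15 after rapamycin. For HOM3 the compound replicates lay at 11.74 and 12.21, beside 12.04 and 12.14 after rapamycin and 12.12 and 12.19 after DMSO. The HOM3 difference changed sign between them: it was 0.06 without CID 3528206 replicate 1 (adjusted p = 0.569) and -0.42 without replicate 2, where it passed (adjusted p = 0.00402).

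Transsulfuration runs both ways in yeast, and the genes of the 2 directions had different values. STR2 and STR3 encode the enzymes from cysteine to homocysteine. STR2 had values of 10.73 and 10.31 after CID 3528206, 10.79 and 10.77 after rapamycin, and 10.06 and 10.02 after DMSO. Both treatments lay above DMSO, with a wide gap between the compound replicates. STR2 rose by 0.48 ± 0.14 after the compound (adjusted p = 0.0280) and by 0.74 ± 0.14 after rapamycin (adjusted p = 0.00537). The compound's call for STR2 ended without DMSO replicate 1 (0.0964) or 2 (0.121) and without either rapamycin array (0.0559), and its difference was 0.27 without CID 3528206 replicate 1. STR3 rose by 0.49 ± 0.13 after the compound (adjusted p = 0.0213), a call that ended without DMSO replicate 1 (0.122). After rapamycin STR3 differed by 0.37 ± 0.13 and did not pass (adjusted p = 0.0509), although it passed without either compound array (0.0260).

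CYS4 and CYS3 encode the enzymes from homocysteine to cysteine. CYS3, cystathionine gamma-lyase, had values of 12.40 and 12.49 after the compound, 11.81 and 11.91 after rapamycin, and 12.32 and 12.32 after DMSO. Only the rapamycin arrays lay below DMSO. CYS3 fell after rapamycin (-0.46 ± 0.07, adjusted p = 0.00300), and its difference after the compound was 0.12 ± 0.07 (adjusted p = 0.199). CYS4, cystathionine beta-synthase, differed by -0.15 ± 0.07 after the compound and -0.14 ± 0.07 after rapamycin, and neither passed.

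The gene for the step from homocysteine to methionine fell with both treatments. MET6, methionine synthase, had values of 11.24 and 11.05 after CID 3528206, 11.26 and 11.30 after rapamycin, and 12.75 and 12.61 after DMSO. All treated arrays lay more than 1 log2 unit below both DMSO arrays. MET6 fell 2.90-fold after the compound (-1.54 ± 0.09, adjusted p = 0.000118) and 2.65-fold after rapamycin (-1.40 ± 0.09, adjusted p = 0.000109).

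The genes that make the methyl folate for Met6 differed among themselves. MET13 and MET12 both encode methylenetetrahydrofolate reductases. MET13 had values of 8.49 and 8.82 after the compound, 8.86 and 8.97 after rapamycin, and 7.84 and 8.17 after DMSO, while MET12 had 10.71 and 10.49 after the compound, 10.48 and 10.49 after rapamycin, and 11.24 and 11.22 after DMSO. The treated arrays were above DMSO for MET13 and below it for MET12. MET13 rose by 0.65 ± 0.15 after the compound (adjusted p = 0.0139) and by 0.91 ± 0.15 after rapamycin (adjusted p = 0.00354). The compound's call for MET13 ended without DMSO replicate 1 (adjusted p = 0.0739). MET12 fell after both treatments, with a log2 difference of -0.63 ± 0.09 after the compound (adjusted p = 0.00229) and -0.74 ± 0.09 after rapamycin (adjusted p = 0.00106). MET7, which adds glutamates to folate, differed by 0.04 ± 0.07 after the compound and 0.02 ± 0.07 after rapamycin.

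All 6 genes of S-adenosylmethionine and S-methylmethionine passed the test after each treatment, 5 of them lower and 1, SAM3, higher. Over all genes tested, 50.5% were called after the compound and 52.7% after rapamycin. SAM1 and SAM2 encode the 2 S-adenosylmethionine synthetases. Their products are closely similar, so cross-hybridisation between the genes is possible and was not tested, although each probe set lacks the suffix for shared probes. SAM1 had values of 11.74 and 11.97 after CID 3528206, 11.72 and 11.83 after rapamycin, and 13.13 and 13.19 after DMSO. SAM2 had values of 10.23 and 10.45 after the compound, 10.79 and 10.87 after rapamycin, and 11.62 and 11.77 after DMSO. For SAM1 the 2 treatments overlapped, while for SAM2 the compound arrays lay lowest. SAM1 fell 2.47-fold after the compound (-1.30 ± 0.10, adjusted p = 0.000234) and 2.62-fold after rapamycin (-1.39 ± 0.10, adjusted p = 0.000140). SAM2 fell 2.55-fold after the compound (-1.35 ± 0.10, adjusted p = 0.000237) and 1.82-fold after rapamycin (-0.86 ± 0.10, adjusted p = 0.00100).

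SAM4 and MHT1 encode methyltransferases that make methionine from homocysteine with S-adenosylmethionine and S-methylmethionine as methyl donors. SAM3 and MMP1 encode the permeases for those 2 compounds, and in the reference annotation SAM3 is the neighbour of SAM4 and MMP1 the neighbour of MHT1. SAM4 had values of 10.86 and 11.06 after the compound, 10.61 and 10.62 after rapamycin, and 11.81 and 11.94 after DMSO. SAM3 had values of 11.27 and 11.03 after the compound, 10.68 and 10.65 after rapamycin, and 9.65 and 9.58 after DMSO. The treated arrays therefore lay below DMSO for SAM4 and above it for its neighbour SAM3. SAM4 fell 1.89-fold after the compound (-0.92 ± 0.09, adjusted p = 0.000692) and 2.40-fold after rapamycin (-1.26 ± 0.09, adjusted p = 0.000170). SAM3 rose 2.89-fold after the compound (1.53 ± 0.09, adjusted p = 0.000125) and 2.07-fold after rapamycin (1.05 ± 0.09, adjusted p = 0.000349).

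The other neighbouring pair moved in 1 direction. MHT1 had values of 7.72 and 7.71 after the compound, 7.49 and 7.57 after rapamycin, and 8.59 and 8.68 after DMSO. MMP1 had values of 8.15 and 8.01 after the compound, 7.94 and 7.83 after rapamycin, and 9.10 and 9.23 after DMSO. All treated arrays of both genes lay below all DMSO arrays. MHT1 fell 1.89-fold after the compound (-0.92 ± 0.07, adjusted p = 0.000262) and 2.15-fold after rapamycin (-1.10 ± 0.07, adjusted p = 9.88e-05). MMP1 fell 2.12-fold after the compound (-1.09 ± 0.09, adjusted p = 0.000322) and 2.43-fold after rapamycin (-1.28 ± 0.09, adjusted p = 0.000130).

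Both methionine permease genes fell after each treatment. MUP3, a low-affinity permease, had values of 9.36 and 9.37 after CID 3528206, 8.80 and 9.01 after rapamycin, and 10.96 and 11.12 after DMSO. The treated arrays lay more than 1.5 log2 units below DMSO, and MUP3 had the lowest difference of the 37 genes in both comparisons. It fell 3.18-fold after the compound (-1.67 ± 0.10, adjusted p = 0.000105) and 4.38-fold after rapamycin (-2.13 ± 0.10, adjusted p = 3.51e-05). MUP1, the high-affinity methionine permease, had values of 9.29 and 9.42 after the compound, 9.60 and 9.57 after rapamycin, and 10.05 and 9.98 after DMSO. It fell after both treatments, with a log2 difference of -0.66 ± 0.08 after the compound (adjusted p = 0.00106) and -0.43 ± 0.08 after rapamycin (adjusted p = 0.00451).

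**Figure D3:**
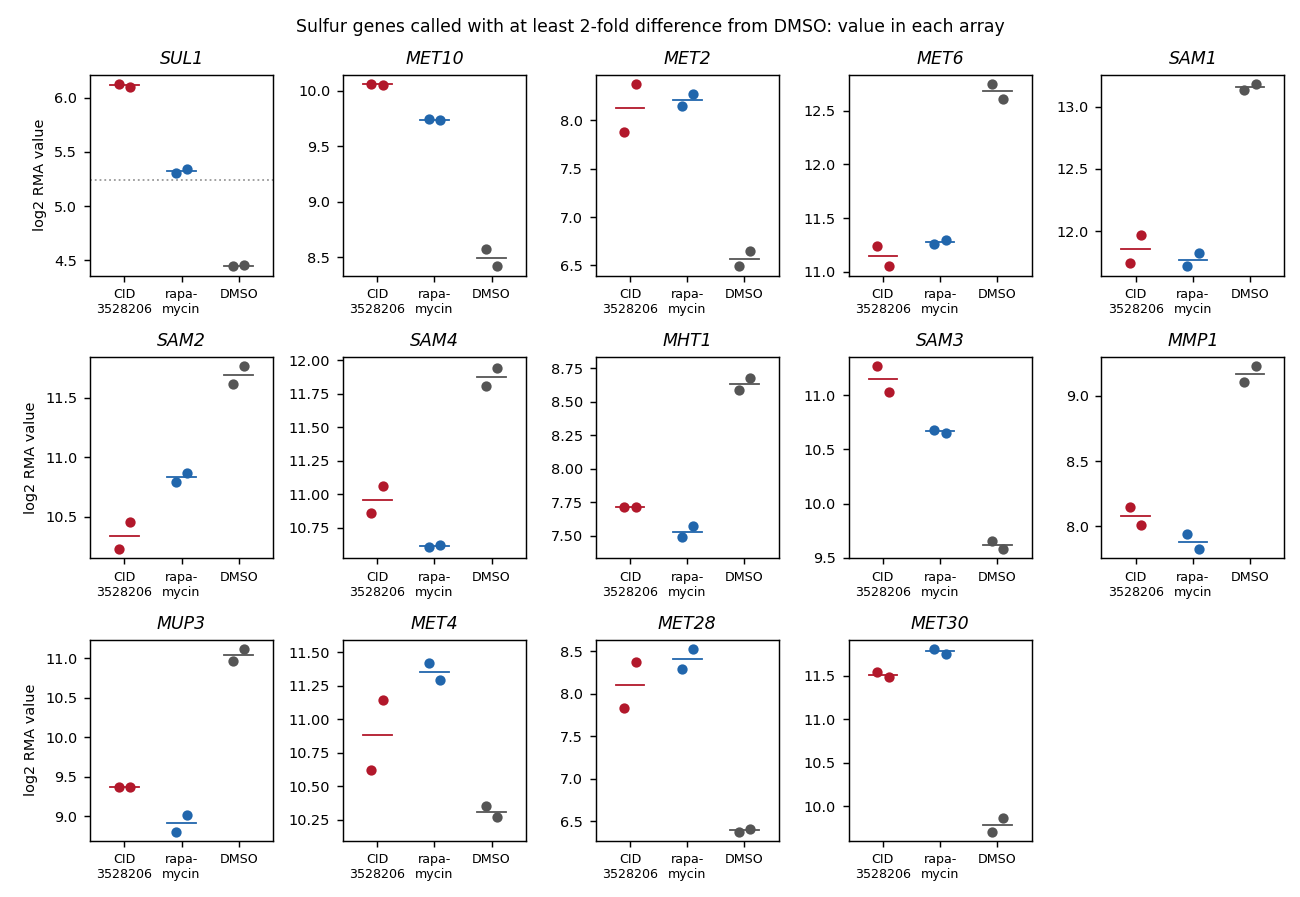
Log2 RMA value (y axis, scaled per gene) in each array of the 14 sulfur genes called with at least 2-fold difference from DMSO after either treatment; points are arrays, lines are group means, and groups run from CID 3528206 to rapamycin to DMSO. The dotted line for SUL1 is the background at 5.24, and no treated array reaches the DMSO arrays of any of these genes.

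Of the 6 regulators, MET30, MET28 and MET4 rose after each treatment. MET31 fell after the compound, and CBF1 and MET32 did not pass after either treatment. Calls made up 66.7% of the 6 after the compound and 50.0% after rapamycin, beside 50.5% and 52.7% of all genes. MET30, the F-box protein that directs ubiquitination of Met4, had values of 11.54 and 11.48 after CID 3528206, 11.81 and 11.75 after rapamycin, and 9.71 and 9.86 after DMSO. The treated arrays lay more than 1.5 log2 units above DMSO. MET30 rose 3.32-fold after the compound (1.73 ± 0.08, adjusted p = 4.80e-05) and 3.99-fold after rapamycin (1.997 ± 0.08, adjusted p = 2.38e-05).

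MET28, a cofactor that strengthens the binding of Cbf1 and Met4 to DNA, had values of 7.83 and 8.37 after the compound, 8.29 and 8.53 after rapamycin, and 6.38 and 6.41 after DMSO. It rose 3.26-fold after the compound (1.70 ± 0.18, adjusted p = 0.000832) and 4.04-fold after rapamycin (2.01 ± 0.18, adjusted p = 0.000352). The lowest treated array of MET28 was CID 3528206 replicate 1, which was still more than 1 log2 unit above DMSO. MET4, the transactivator itself, had values of 10.62 and 11.14 after the compound, 11.42 and 11.29 after rapamycin, and 10.36 and 10.27 after DMSO. MET4 rose by 0.57 ± 0.17 after the compound (adjusted p = 0.0323) and 2.06-fold after rapamycin (1.04 ± 0.17, adjusted p = 0.00326). The compound's call for MET4 ended without DMSO replicate 1 (0.0927) or 2 (0.137) and without either rapamycin array (0.0567). Its difference was 0.31 without CID 3528206 replicate 2 and 0.83 without replicate 1.

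The zinc finger genes MET31 and MET32, whose products bring Met4 to DNA, were not called higher. MET31 had values of 9.03 and 9.39 after the compound, 9.42 and 9.55 after rapamycin, and 9.75 and 9.85 after DMSO. Its difference was -0.59 ± 0.13 after the compound (adjusted p = 0.0106), a call that ended without DMSO replicate 2 (0.0678). After rapamycin it was -0.32 ± 0.13 and did not pass (adjusted p = 0.0804), although it passed without either compound array (0.00705). MET32 lay between 6.54 and 6.96 in all arrays, with differences of 0.03 ± 0.16 after the compound and 0.18 ± 0.16 after rapamycin. CBF1, which encodes a helix-loop-helix protein of centromeres and of sulfur genes, had values of 8.44 and 9.33 after the compound, 9.26 and 9.41 after rapamycin, and 9.33 and 9.40 after DMSO. Only CID 3528206 replicate 1 lay apart, by 0.89 from its replicate, the widest replicate gap among the members. The CBF1 difference of -0.48 ± 0.27 after the compound did not pass (adjusted p = 0.178). It was -0.04 without CID 3528206 replicate 1 (adjusted p = 0.748) and -0.92 without replicate 2, where it passed (adjusted p = 0.000328).

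Replicates of the compound differed more than those of the other groups, over the members as over all genes. A gap over 0.3 log2 units between replicates was found for 10 members after CID 3528206, 0 after rapamycin and 2, MET13 and MET32, after DMSO. The 10 were CBF1, MET28, MET4, MET2, HOM3, STR2, MET14, MET32, MET31 and MET13, among them 5 of the 6 regulators. The share of all genes with such a gap was not counted. Over the members, replicate differences had a standard deviation of 0.27 after the compound, 0.09 after rapamycin and 0.12 after DMSO, and over all genes tested 0.267 after the compound, 0.122 after rapamycin and 0.123 after DMSO. With that 3' to 5' excess in the model, 16 members were higher and 14 lower after the compound than after DMSO. In that fit 60.2% of all genes were called, beside 50.5% without the excess in the model.

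Compared directly at the concentrations used, CID 3528206 and rapamycin differed for the members by less than 1 log2 unit each, from -0.49 to 0.79. The median absolute difference was 0.23, beside 0.18 for all genes tested. After the compound 7 members were higher than after rapamycin, 2 were lower and 28 did not pass, beside 9.32% of all genes called higher and 9.43% called lower. No member was called with at least 2-fold difference, as were 1.16% of all genes. The arrays of the 2 treatments did not overlap for 25 members, beside 63.5% of all genes. The counts depend on single arrays, as do those of all genes, of which 18.8% were called in all. Without either DMSO array 2 members were higher and 0 lower, beside 7.29% of all genes called. Without rapamycin replicate 1 or 2 the counts were 1 and 0, beside 1.93% and 1.76% of all genes. They were 8 and 2 without CID 3528206 replicate 1, beside 23.9% of all genes, and 10 and 11 without replicate 2, beside 48.6%.

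SUL1 had the largest direct difference, at 1.73-fold higher after the compound than after rapamycin (0.79 ± 0.06, adjusted p = 0.00259), and passed under every alternative run (highest adjusted p = 0.0379). CYS3 was 1.499-fold higher after the compound (0.58 ± 0.07, adjusted p = 0.00696), a call that ended without rapamycin replicate 1 (0.0759) or 2 (0.0592). SAM3 was higher by 0.48 ± 0.09 (adjusted p = 0.0223) and MUP3 by 0.46 ± 0.10 (adjusted p = 0.0274). The sulfite reductase genes MET5 and MET10 were higher by 0.40 ± 0.10 and 0.32 ± 0.08 (adjusted p = 0.0449 and 0.0390), and MET17 by 0.31 ± 0.07 (adjusted p = 0.0257). SAM2 was lower after the compound than after rapamycin by -0.49 ± 0.10 (adjusted p = 0.0257) and HOM2 by -0.29 ± 0.08 (adjusted p = 0.0473).

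The direct calls for SAM3, MUP3, MET5, MET10, MET17, SAM2 and HOM2 each ended when any 1 of the DMSO or rapamycin arrays was left out. Without rapamycin replicates 1 and 2 their adjusted p was 0.130 and 0.152 for SAM3, 0.166 and 0.0907 for MUP3, and 0.213 and 0.190 for MET5. It was 0.186 and 0.223 for MET10, 0.178 and 0.157 for MET17, 0.124 and 0.172 for SAM2, and 0.132 and 0.282 for HOM2. Without either DMSO array it ran from 0.0573 for SAM2 to 0.112 for HOM2, and the HOM2 call also ended without CID 3528206 replicate 1 (0.0569). SAM4 was just outside the threshold, with a difference of 0.35 ± 0.09 (adjusted p = 0.0505), and passed without CID 3528206 replicate 1 (0.0135) or 2 (0.0435).

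For several members the direct interval was narrow. The 95% interval of the compound minus rapamycin difference ran from -0.19 to 0.12 for MET3, from -0.17 to 0.15 for CYS4, from -0.16 to 0.20 for MET7 and from -0.15 to 0.32 for SAM1. It ran from -0.36 to 0.09 for MET6, and for MET2 it was wider, from -0.48 to 0.33. All 6 regulators had a negative direct difference, from -0.15 for MET32 to -0.48 for MET4, and none passed in the main fit. For their fits with 1 compound array left out, only the differences are given here, not whether they passed. Their widest interval was that of CBF1, from -1.10 to 0.20. Without CID 3528206 replicate 1, the array with the larger 3' to 5' difference, MET4 differed by -0.21, MET28 by -0.04 and CBF1 by -0.01. In that setting MET31 differed by -0.10 and MET32 by 0.04. MET30 differed by -0.30 there, beside -0.27 with all arrays. With replicate 1 alone for the compound, the differences were -0.74 for MET4, -0.58 for MET28 and -0.89 for CBF1. They were -0.45 for MET31, -0.34 for MET32 and -0.24 for MET30. With the 3' to 5' covariate and all arrays, MET30 alone of the 6 passed (limma adjusted p = 0.0382).

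**Figure D4:**
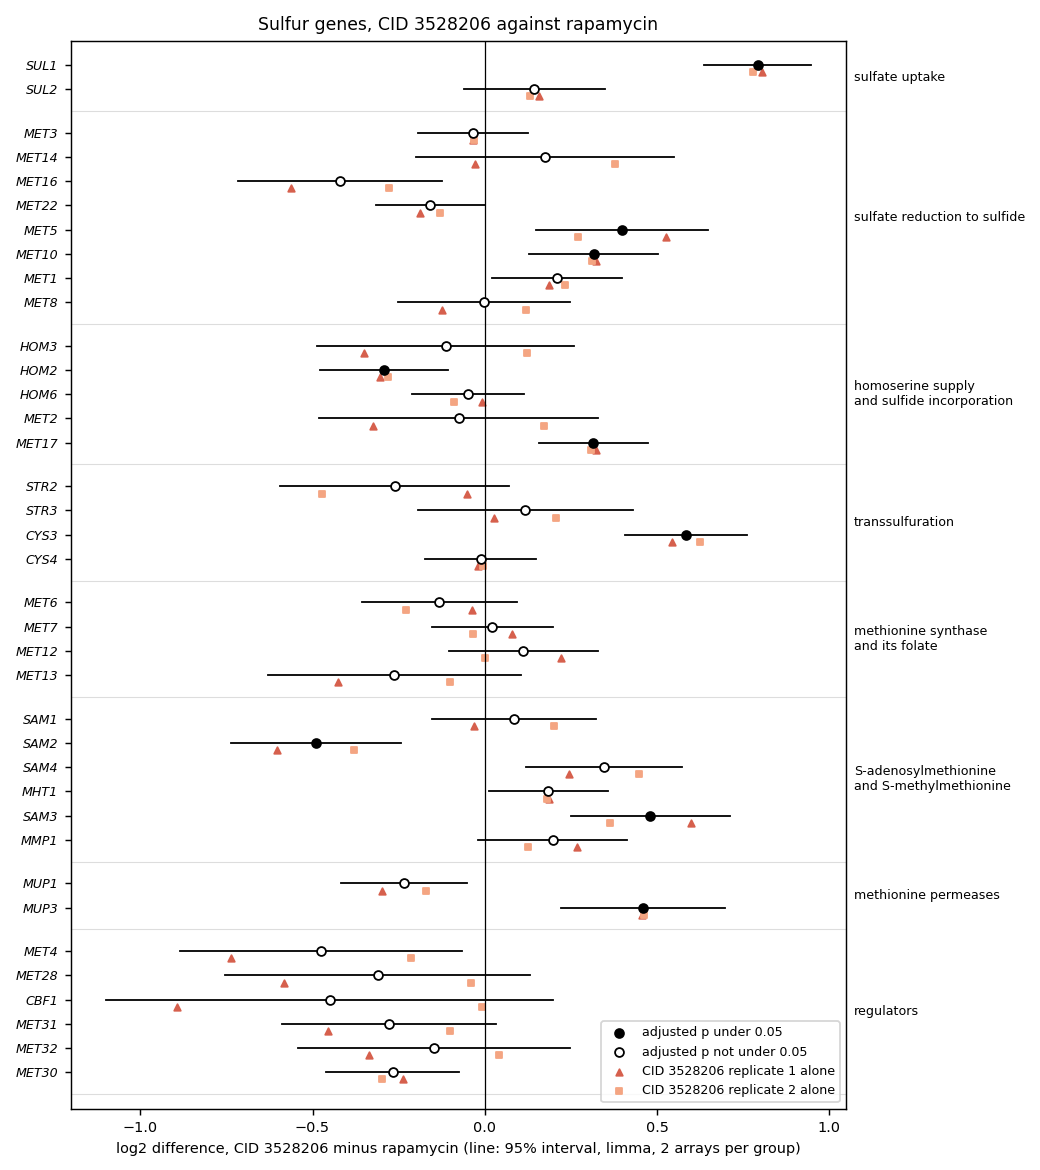
Log2 difference of CID 3528206 minus rapamycin (x axis, log2 units) of the 37 sulfur genes by role; circles with lines are the limma difference and its 95% interval with 2 arrays per group, filled where the adjusted p was under 0.05. Triangles and squares set each compound array alone against the rapamycin mean, and among the regulators the triangle of replicate 1 lies left of the square of replicate 2 for all but MET30.

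Genes around the pathway were taken from a list of 48, of which 46 were measured. After CID 3528206, 11 rose, 12 fell and 23 did not pass, and after rapamycin 14 rose, 14 fell and 18 did not pass. These calls made up 50.0% of the 46 after the compound and 60.9% after rapamycin, beside 50.5% and 52.7% of all genes tested. At least 2-fold calls were made for 2 after the compound, or 4.35%, beside 7.07% of all genes. After rapamycin they were made for 7, or 15.2%, beside 8.46%. The counts of the smaller lists below are to be read beside the same shares of all genes. SHM2, the cytosolic serine hydroxymethyltransferase that feeds the folate of Met6, fell after both treatments, with a log2 difference of -2.06 ± 0.08 after the compound (adjusted p = 3.07e-05) and -2.81 ± 0.08 after rapamycin (adjusted p = 6.68e-06). Its values were 11.94 and 12.02 after the compound, 11.15 and 11.31 after rapamycin, and 14.06 and 14.02 after DMSO, so that the groups lay far apart.

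Of 8 genes of glutathione metabolism, CID 3528206 gave 2 rises, 2 falls and 4 that did not pass, and rapamycin 2 rises, 5 falls and 1 that did not pass. GSH1, which makes gamma-glutamylcysteine, fell after both treatments, with a log2 difference of -0.54 ± 0.09 after the compound and -1.01 ± 0.09 after rapamycin. OPT1, a glutathione importer gene, fell too, with a log2 difference of -0.80 ± 0.20 after the compound and -1.56 ± 0.20 after rapamycin. ECM38, which degrades glutathione, rose by 0.76 ± 0.08 after the compound and by 1.20 ± 0.08 after rapamycin. All these passed, with adjusted p up to 0.0183 after the compound and 0.00140 after rapamycin.

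Among 11 genes of the methyl cycle and of the salvage of methylthioadenosine, a route back to methionine, 2 rose, 4 fell and 5 did not pass after the compound. After rapamycin 3 rose, 5 fell and 3 did not pass. The dioxygenase gene ADI1 fell after both treatments, with a log2 difference of -0.80 ± 0.07 after the compound and -1.02 ± 0.07 after rapamycin. The transaminase genes BAT2 and ARO9, which also serve other amino acids, went opposite ways. BAT2 rose by 1.03 ± 0.06 after the compound and by 1.23 ± 0.06 after rapamycin. ARO9 fell, with a log2 difference of -0.88 ± 0.11 after the compound and -2.05 ± 0.11 after rapamycin. The differences of ADI1, BAT2 and ARO9 passed after both treatments, with adjusted p up to 0.00137. ARO9 was higher by 1.17 ± 0.11 after the compound than after rapamycin (adjusted p = 0.00326).

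Among 8 genes for other sulfur sources, 4 rose, 1 fell and 3 did not pass after CID 3528206, and 6 rose, 1 fell and 1 did not pass after rapamycin, all by less than 1 log2 unit. For folate one-carbon supply the counts of 8 genes were 1 up and 2 down after each treatment. The 2 genes of the branch from homoserine to threonine gave 1 rise after the compound and 0 calls after rapamycin. Of 9 genes of the SCF ligase, thioredoxin and Gcn4, 1 rose and 3 fell after the compound, and 2 rose and 1 fell after rapamycin.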

How the data were processed

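Biotinylated cRNA was hybridised to 6 yeast arrays. The deposited log2 values, 1 per probe set, were made by the authors with RMA, per the submitters' processing notes. Software and settings of RMA: not given in the sources used here. Of 10928 probe sets, 5498 named 1 S. cerevisiae gene in the platform's probe table and gave 5449 genes, with symbols updated through assembly R64 (names and neighbours only); 47 genes had several probe sets, and the one with the highest mean was used. The probe sets for S. pombe are those whose gene is absent from that assembly; all carry names in the S. pombe manner.

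Differences were fitted across all genes with limma 3.58.1 in R 4.3.3 (lmFit, eBayes) over the 6 arrays and 3 group means, leaving 3 residual degrees of freedom, two-sided, with Benjamini-Hochberg adjustment over 5449 genes; a log2 difference of 1 counts as 2-fold. The fit was tested on simulated data with independent arrays and, for each gene, the same spread in every group. That setting does not cover the wider spread of the compound replicates or the correlation of replicate differences between groups. Lists are described by counts and medians. Precision is limited by having 2 arrays per group. The members and lists were chosen with earlier results of these data known. All members are named; of the neighbouring genes, those called with at least 2-fold difference from DMSO, up to 12. No sequence is shown. Of 2 neighbouring genes, SOA1 and YLL058W, no probe set was matched. The alternatives, 18 in all, are given in the closing section.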

Additional observations from a re-analysis of the deposited data

How the results depend on the processing

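The arrays number 2 per group, and limma pools the spread over groups although CID 3528206 replicates spread more widely. Each member was refitted under 18 alternatives, and no called difference changed sign. Calls held under every alternative run for 18 of 29 members for CID 3528206 against DMSO, 23 of 25 for rapamycin against DMSO (all but MET3 and MET22) and 1 of 9, SUL1, for CID 3528206 against rapamycin. Genes under a filter that left them out were not refitted there. Where calls ended, the cause was not tested.

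Leaving out the third of genes that had the lowest means, 22 members were tested. Against DMSO, 5 were then higher and 12 lower for the compound, and 5 higher and 11 lower for rapamycin. Calls in either direction made up 53.2% and 55.9% of all genes. The member medians were -0.39 and -0.29, beside -0.01 and -0.04 for all genes in that setting. With an adjusted p under 0.01, 7 members were higher and 12 lower for the compound against DMSO. In that setting 31.3% of all genes were called, beside 50.5% in the main fit. Leaving out 1 array at a time gave 7 to 16 higher for that comparison. Between the compound and rapamycin the counts were 1 to 10 higher and 0 to 11 lower when leaving out 1 array. They were 2 higher and 0 lower with all probe sets, with only the 4 arrays of the comparison, and with an adjusted p under 0.01. In these settings 3.74% of all probe sets, 7.29% of all genes and 3.93% of all genes were called, beside 18.8% of all genes in the main fit. The member counts were 11 and 5 with the 3' to 5' covariate, beside 34.6% of all genes called. After quantile normalization of the tested genes 8 were higher and 1 was lower, beside 18.8% of all genes.

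Replicate numbers are shared by the groups, but nothing in the labels pairs the arrays. Differences between replicates 1 and 2 correlated across genes by 0.25 to 0.43 between groups. With the replicate number as a block, 15 members were higher and 14 lower for the compound against DMSO, beside 56.6% of all genes called. The counts were 13 and 14 for rapamycin against DMSO, beside 58.6% of all genes. For the compound against rapamycin they were 8 and 3, beside 27.7%. Without the block the shares of all genes called were 50.5%, 52.7% and 18.8%, in that order. The block ended no member's call and added 4: STR3 (adjusted p = 0.00482) and MET31 (0.0235) for rapamycin against DMSO, and MET16 (0.0127) and SAM4 (0.0248) for the compound against rapamycin.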
